A study of Danio rerio with 3 samples.

Results

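The 10 genes followed here belong to fast skeletal muscle and were chosen by name: the myosin heavy chain genes myhz1.1 and myhz2, the myosin light chain genes mylpfa, mylpfb and mylz3, the skeletal actin gene acta1b, the troponin T genes tnnt3a and tnnt3b, the muscle creatine kinase gene ckma and the parvalbumin gene pvalb2. They were 10 of the 28216 gene symbols listed with the count matrices, and each of them was detected in every library. Suspensions were made from 10 whole wild-type (WT) zebrafish larvae each at 48 h post fertilisation (hpf) by 30 min in TrypLE, an enzyme mix, at 37°C with 10 mM 4-thiouridine (4sU), a uridine analogue that enters newly made RNA. The dissociation library was fixed in methanol straight afterwards. The FACS library was made from cells kept for about 15 min on ice and sorted for 10 min, with a gate that kept all but very small debris and the extremes of size and granularity, and the FACS plus ice library had a further 30 min on ice after the same sort. The sort buffer held no 4sU, but the chilled collection tube again held 10 mM 4sU. All fixed cells were treated with 10 mM iodoacetamide (IAA), after which a 4sU base is sequenced as C instead of T, and all 3 preparations had the same strain, age, dissociation and IAA step.

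Fast muscle fibres contract when the heads of myosin heavy chains pull on actin filaments, and each heavy chain carries a regulatory and an essential light chain. Troponin T ties the calcium-sensing troponin complex to tropomyosin on the actin filament, so that calcium release switches contraction on. Creatine kinase rebuilds ATP from phosphocreatine during contraction, and parvalbumin is a soluble calcium buffer that speeds relaxation, so that ckma and pvalb2 mark fast fibres without encoding a part of the filament. In zebrafish larvae most of the trunk musculature is fast muscle, its fibres are long and multinucleate, and slow muscle forms a thin superficial layer.

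The dissociation library held 11043 cells and 50313576 unique molecular identifiers (UMIs, 1 for each captured RNA molecule), the FACS library 4609 cells and 23095410 UMIs, and the FACS plus ice library 9550 cells and 61231163 UMIs. The median cell had 2402, 3143 and 3995 UMIs in this order. Reads came from the 3′ ends of the RNA, so levels were not scaled by gene length. Pairs of libraries had between 11 and 28 cell barcodes in common. Each condition had 1 library, so no difference has a replicate error, no conditions were tested against each other and p-values are not given. Intervals are 95% intervals that cover counting error only, and reads copied by PCR are not independent molecules. They are exact Poisson intervals for UMI sums and for counts of labelled reads, and exact Clopper-Pearson intervals for shares of cells. For ratios of UMI sums a log-normal approximation was used.

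All 10 genes were far lower in both sorted libraries than in the dissociation library. Levels are given as counts per 1000000 UMIs of a library (CPM). Together they took 15751 CPM in the dissociation library (95% interval 15716 to 15785), 229.7 after FACS (223.6 to 236.0) and 467 with FACS plus ice (461 to 472). The sum was therefore 68.6-fold lower after FACS and 33.7-fold lower with FACS plus ice, and no library came near the dissociation library. Each of the 10 genes fell below 0.5 times its dissociation level in both sorted libraries, where 4.82% of the 11445 genes with at least 250 UMIs did so after FACS and 4.12% with FACS plus ice. The median ratio to the dissociation library was 0.0198 over the 10 genes and 1.04 over all genes after FACS, and 0.0377 against 1.15 with FACS plus ice. Both comparisons share the 1 dissociation library. In such sums, fewer muscle cells, less RNA per muscle cell and less RNA of these genes in other cells cannot be told apart. The sort gate, which removed extremes of size, also lies between the libraries compared.

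**Figure D1:**
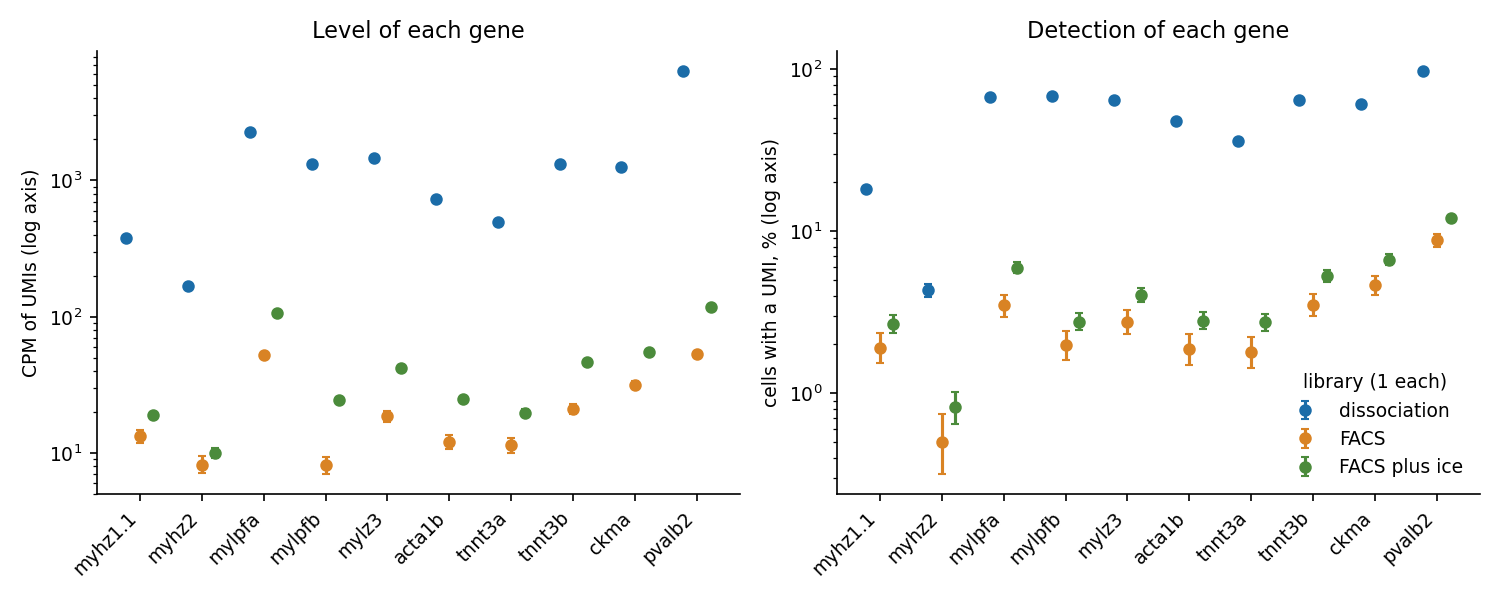
The left panel plots the level of each gene as CPM on a log axis and the right panel the percent of cells with at least 1 UMI of the gene, also on a log axis, with 1 point for each library and bars for the 95% interval of counting error. For every gene the dissociation library lies highest on both panels and the FACS library lowest, with pvalb2 at 6332, 53.0 and 118 CPM for dissociation, FACS, and FACS plus ice.

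Among the myosin heavy chains, myhz1.1 (ENSDARG00000067990, where another identifier with the same symbol added 42, 19 and 64 UMIs) was at 376 CPM in the dissociation library, 13.3 after FACS and 18.9 with FACS plus ice. Its level was 28.3-fold lower after FACS and 19.9-fold lower with FACS plus ice. The other heavy chain gene, myhz2 (ENSDARG00000012944), was at 167, 8.23 and 10.1 CPM in the same order. Its fold differences, 20.3-fold and 16.6-fold, were the smallest of the 10 genes over all cells. Without the 5% deepest cells of each library myhz2 was 13.98-fold and 2.47-fold lower and myhz1.1 6.19-fold and 4.25-fold, and without the 10 cells with most UMIs of the 10 genes, left out after seeing the data, myhz2 was 71.5-fold and 25.1-fold lower and myhz1.1 37.2-fold and 21.3-fold. The zebrafish heavy chain genes are near-identical tandem copies, so how reads were split among them is uncertain.

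The regulatory light chain gene mylpfa (ENSDARG00000053254) was at 2277, 52.3 and 106 CPM in the dissociation, FACS, and FACS plus ice libraries. These values were 43.5-fold and 21.4-fold below dissociation. Its paralog mylpfb (ENSDARG00000002589) was at 1326, 8.14 and 24.7 CPM. With 163-fold after FACS (ratio 0.00614, interval 0.00532 to 0.00708), mylpfb had the steepest difference of the 10 genes in that library, and it stood 53.7-fold lower with FACS plus ice. The essential light chain gene mylz3 (ENSDARG00000017441) went from 1466 to 18.6 and 42.4 CPM, 78.8-fold and 34.6-fold lower. For each mylpfa UMI, mylpfb had 0.583 UMIs in the dissociation library (0.577 to 0.588), 0.156 after FACS (0.133 to 0.181) and 0.232 with FACS plus ice (0.219 to 0.245). A few cells carried much of the FACS value, which was 0.409 (0.328 to 0.509) without the 10 cells with most UMIs of the 10 genes, beside 0.586 and 0.213 in the other libraries. Other choices of cells kept the difference. Without the 5% deepest cells of each library the ratio was 0.937, 0.205 and 0.239, and without the cells rich in other muscle genes described below it was 0.890, 0.180 and 0.140.

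On the thin filament, acta1b (ENSDARG00000055618) was at 731, 12.1 and 24.9 CPM, 60.3-fold lower after FACS and 29.4-fold lower with FACS plus ice. The troponin T gene tnnt3a (ENSDARG00000030270) was at 498, 11.4 and 19.8 CPM, and tnnt3b (ENSDARG00000068457) was at 1314, 21.0 and 46.8. This made tnnt3a 43.6-fold and tnnt3b 62.5-fold lower after FACS, and 25.1-fold and 28.1-fold lower with FACS plus ice. The ratio of tnnt3a to tnnt3b UMIs was 0.379 (0.374 to 0.385) in the dissociation library, 0.543 (0.468 to 0.631) after FACS and 0.423 (0.396 to 0.453) with FACS plus ice. Without the 5% deepest cells of each library it was 0.351, 0.357 and 0.426, so the FACS value was then close to that of the dissociation library. Without the 10 cells with most UMIs of the 10 genes it was 0.388, 0.519 and 0.468, so the FACS value then stayed higher. Reads of paralogs such as these could be assigned to either copy, and how far that happened was not tested.

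Of the soluble proteins, ckma (ENSDARG00000035327) was at 1263, 31.6 and 55.3 CPM, 40.0-fold and 22.8-fold lower. The parvalbumin gene pvalb2 (ENSDARG00000002768) went from 6332 to 53.0 and 118 CPM, 119.6-fold and 53.9-fold lower. The ratio of pvalb2 to mylpfa was 2.78 in the dissociation library (2.76 to 2.80), 1.012 after FACS (0.934 to 1.095) and 1.11 with FACS plus ice (1.07 to 1.143). Without the 10 cells with most UMIs of the 10 genes the ratio was 2.81, 2.208 (1.91 to 2.55) and 0.959, so most of the FACS difference rested on those cells. Against the dissociation library, pvalb2 and mylpfb had larger fold differences than the other 8 genes in both sorted libraries.

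Over all cells the 10 genes were higher with FACS plus ice than after FACS alone. The ratio ran from 1.22 (1.04 to 1.44) for myhz2 to 3.03 (2.61 to 3.53) for mylpfb, and 6 of the 10 genes were at least 2-fold higher, where 3.05% of all genes were and the median of all genes was 1.104. The 6 genes were mylpfa, mylpfb, mylz3, tnnt3b, acta1b and pvalb2. Which genes passed depended on the cells included. Without the 10 cells with most UMIs of the 10 genes 3 passed (mylpfa, myhz2 and acta1b) and mylpfb, mylz3, tnnt3b and pvalb2 did not, and without the cells rich in other muscle genes described below none passed, 3 genes were higher and the ratio ran from 0.555 (pvalb2) to 1.44 (myhz1.1). These sums rest on few cells: the 10 cells with most UMIs of the 10 genes held 33.0% of them in the dissociation library, 59.5% after FACS and 65.8% with FACS plus ice, and the single highest cell held 38719, 1317 and 4580 UMIs. Without those 10 cells, which were left out after seeing the data, the sum was 115-fold lower after FACS and 67.1-fold lower with FACS plus ice. Without the 5% deepest cells of each library it was 32.5-fold and 14.5-fold lower.

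To separate the cells that carry the muscle programme from the others, cells were split by a list of 34 muscle genes that holds none of the 10. Cells in which that list gave at least 5% of the UMIs numbered 213 in the dissociation library, 5 after FACS and 24 with FACS plus ice, which is 1.93% (1.68 to 2.203), 0.108% (0.0352 to 0.253) and 0.251% (0.161 to 0.374) of the cells. Muscle-rich cells were thus a smaller share of both sorted libraries, behind a sort gate that excludes extremes of size. The share itself turned on the limit: it was 21.1%, 0.325% and 0.534% at 2% of the UMIs, where 1544 of the 2333 cells of the dissociation library were under 1000 UMIs, and 0.824%, 0.0217% and 0.157% at 10%. A share cut from such a score is a range and not a cell type, and 297, 3 and 13 cells lay between 4% and 6%. Many of the muscle-rich cells were shallow, with 79 of 213, 2 of 5 and 13 of 24 under 1000 UMIs.

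These muscle-rich cells held 75.02%, 21.9% and 67.4% of all UMIs of the 10 genes in the 3 libraries. The FACS value turned on the limit, with 60.9% at a limit of 2% of the UMIs and 3.30% at 10%. In them the 10 genes took 153050 CPM in the dissociation library, 46598 after FACS and 94409 with FACS plus ice. Cells chosen for other muscle genes are bound to hold much of the 10 genes too, so nothing is read from these levels being high. The median cell had 5.40%, 3.24% and 9.95% of its UMIs from the 10 genes, another order than that of the sums. At a limit of 2% the sums were 98079, 25738 and 41903 CPM, and at 10%, where the FACS library kept 1 cell, 195380, 189390 and 133570. At the limit of 5% mylpfa was at 23739, 12741 and 21203 CPM of these cells, while pvalb2 was at 60794, 8014 and 27899 and mylpfb at 12062, 1122 and 5907. With 5 muscle-rich cells in the FACS library, these values describe single cells of that preparation.

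The difference between libraries was also present in the cells that remained. Outside the muscle-rich cells the 10 genes took 4264 CPM in the dissociation library, 179.6 after FACS and 152.5 with FACS plus ice, 23.7-fold and 27.96-fold lower. mylpfb again differed most, from 428 to 6.94 and 5.00 CPM (61.7-fold and 85.7-fold), followed by pvalb2, from 1776 to 44.3 and 24.6 (40.1-fold and 72.1-fold). myhz2 differed least, from 18.5 to 7.76 and 4.31 (2.39-fold and 4.30-fold). The order of the sorted libraries in these cells depended on the limit, with 90.3 CPM after FACS and 92.96 with FACS plus ice outside the cells at 2%, and 222 and 186 outside those at 10%.

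The 10 genes were detected in nearly every cell of the dissociation library. At least 1 UMI of any of them was found in 99.8% of cells after dissociation (99.7 to 99.9), in 21.7% after FACS (20.6 to 23.0) and in 31.2% with FACS plus ice (30.2 to 32.1). pvalb2, the gene seen most often, was found in 96.9%, 8.74% and 11.96% of cells. mylpfa was found in 66.6%, 3.47% and 5.94%, and myhz2, the gene seen least often, in 4.30%, 0.499% and 0.817%. When each cell was thinned to 1000 UMIs, leaving out 2496, 422 and 1124 shallower cells, the share with any of the 10 genes was 89.1%, 7.48% and 9.36%, so the order of the libraries was the same at equal depth.

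Cells rich in markers of types that do not make muscle proteins also held UMIs of the 10 genes. Reference classes were cut after the data were seen: cells in which haemoglobin genes gave at least 20% of the UMIs (506, 345 and 628 cells), a keratin list of the epidermis at least 5% (363, 91 and 182) and a neuronal list at least 1% (880, 537 and 844). Among haemoglobin-rich cells, 99.8% held a UMI of the 10 genes in the dissociation library, 15.7% after FACS and 28.7% with FACS plus ice, at median depths of 9646, 9194 and 7778 UMIs. Among keratin-rich cells the shares were 100%, 26.4% and 35.2% at median depths of 12227, 9919 and 12996 UMIs. Among cells rich in neuronal genes, with median depths of 1942, 2038 and 2958 UMIs, they were 99.8%, 19.7% and 24.4%. The classes differed within a sorted library, and the share over all cells lay within the range of the 3 classes in each library, so a UMI of these genes in a cell was not read as expression in that cell, and the share of cells with a UMI carries no count of muscle cells. No doublet caller was run, and of the haemoglobin-rich cells 1, 0 and 1 also passed the muscle-rich limit.

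The level in those classes was also highest in the dissociation library. The 10 genes took 2841 CPM in haemoglobin-rich cells, 4159 in keratin-rich cells and 5193 in neuronal cells of the dissociation library. After FACS they took 33.2, 38.6 and 177 CPM in the same classes, and with FACS plus ice 580.3, 190.3 and 205. A few cells carried much of some of these levels: with FACS plus ice 1 haemoglobin-rich cell held 3628 of the 4068 UMIs of that class. The 10 cells of a class with most UMIs of the 10 genes held 7.91% of them in neuronal cells of the dissociation library, the lowest share. The highest was 94.8%, in haemoglobin-rich cells with FACS plus ice. Without the 10 cells of each class with most UMIs of the 10 genes, left out after seeing the data, the levels were 1622.5, 1326.5 and 4905 CPM in the dissociation library, 13.2, 18.0 and 96.7 after FACS, and 31.5, 31.0 and 99.4 with FACS plus ice. pvalb2 alone was found in 96.2% of haemoglobin-rich cells after dissociation, 7.54% after FACS and 11.6% with FACS plus ice.

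In the dissociation library the share of a cell's UMIs that came from the 10 genes was larger in shallow cells. Its median was 1.94% in the 2496 cells with 500 to 1000 UMIs, 0.585% in 2192 cells with 1000 to 2000, 0.352% in 2689 cells with 2000 to 4000 and 0.219% in 1942 cells with 4000 to 8000. It reached 0.139% in 1263 cells with 8000 to 16000 UMIs and 0.127% in the 461 deepest cells. The median number of UMIs of the 10 genes per cell stayed between 9 and 15 below 16000 UMIs, so it changed far less than the depth. In the FACS library the median share was 0 in every depth class.

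Lens crystallin genes, an unrelated set looked at after the data were seen, were also lower in both sorted libraries. Crystallins are the main soluble proteins of lens fibre cells. The 55 crystallin genes took 6236 CPM in the dissociation library, 178 after FACS and 64.6 with FACS plus ice, 35.0-fold and 96.6-fold lower, so the order of the sorted libraries was the opposite of that of the 10 genes. They were found in 99.8%, 10.7% and 11.1% of cells. Their median share by depth class in the dissociation library went from 2.91% in the shallowest cells to 0.138% in the deepest. For both gene sets, the part that RNA outside intact cells had in these shares was not tested.

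**Figure D2:**
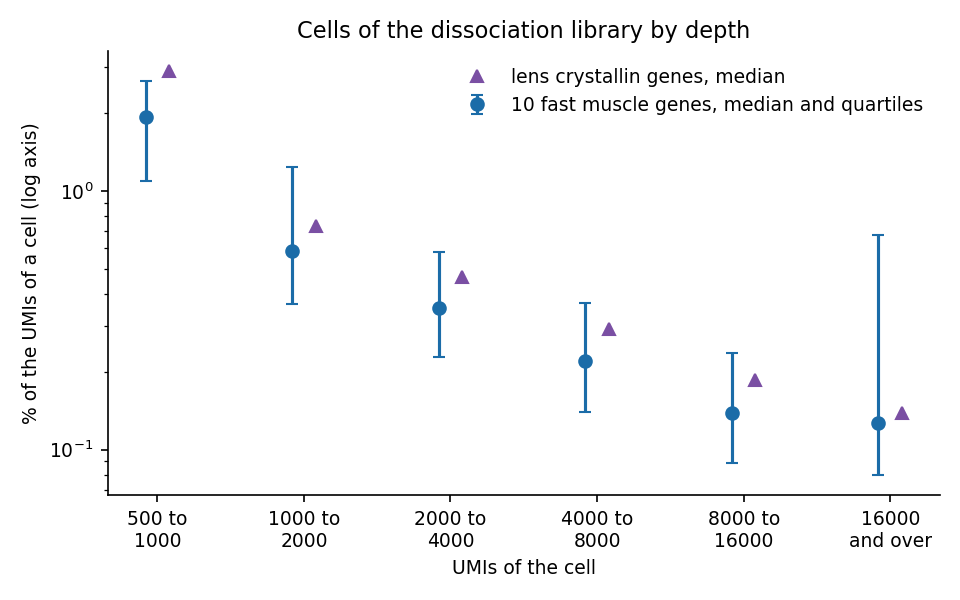
Cells of the dissociation library are grouped by their UMI number on the horizontal axis, and the vertical log axis gives the percent of a cell's UMIs, as the median and quartiles over cells for the 10 fast muscle genes and as the median for lens crystallin genes. The medians of both gene sets fall from the cells with 500 to 1000 UMIs (1.94% and 2.91%) to the deepest cells (0.127% and 0.138%).

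The FACS library came with a list of genes for every barcode, which allowed barcodes outside the cell list to be counted. The 1182743 such barcodes held 4.66 genes on average, against 965 in a cell. At least 1 of the 10 genes was found in 5115 of them (0.432%, 0.421 to 0.444). Per 10000 gene detections, where a gene in a barcode is 1 detection, the 10 genes made up 10.2 outside the cells (9.95 to 10.5) and 3.37 in the cells (3.20 to 3.55). The genes were thus a larger part of what was detected outside the cells than inside them. pvalb2 made up 40.1% of these detections outside the cells and 28.2% inside, while ckma made up 11.4% and 14.4%. In the lists of the other libraries every barcode was that of a cell, so no such count could be made for them.

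The tables by cell type, which hold reads summed over the cells of each type and are given as reads per 1000000 reads of a table (RPM), placed the 10 genes highest in the table that the authors named head muscle. In the dissociation library they took 17.4% of all reads of the head muscle table, 2.40% of the muscle table and between 0.182% (blood) and 0.460% (pigment cells) of the 12 other tables. In the sorted libraries, which had no muscle table, they took 0.477% of the head muscle reads after FACS and 1.59% with FACS plus ice. The other tables were at 19.4 to 201 RPM after FACS and 37.4 to 380 RPM with FACS plus ice. The highest of these, pharynx with FACS plus ice, owed 253 of its 380 RPM to myhz1.1. Of genes listed as head muscle markers, tbx1 was at 2.82 RPM in head muscle after dissociation (median of the other types 2.35) and tcf21 at 4.50 (1.33). In the sorted libraries tbx1 was at 22.8 and 20.5 RPM there and tcf21 at 19.7 and 35.9. myog, on the same list, stood at 133 RPM after dissociation (0.805). These markers were named after their values were seen. Whether the head muscle tables hold like cells was not tested.

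All 10 genes were at least 10-fold higher in head muscle than in the median of the other cell types in every library, on the scale of RPM + 1, where 1.86%, 1.02% and 1.33% of all genes were in the dissociation, FACS, and FACS plus ice libraries. The ratio in the dissociation library ran from 46.3 for mylpfb to 332 for myhz2, with a median of 62.1. After FACS it ran from 18.2 (mylpfb) to 231 (mylpfa), with a median of 77.6, and with FACS plus ice from 63.0 (myhz1.1) to 393 (mylpfa), with a median of 210.1. No gene in the dissociation library had a higher ratio than myhz2. With a pseudocount of 10 RPM, mylpfb and myhz2 dropped below 10-fold in the FACS library, where 413 and 248 reads of them lay in the head muscle table.

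**Figure D3:**
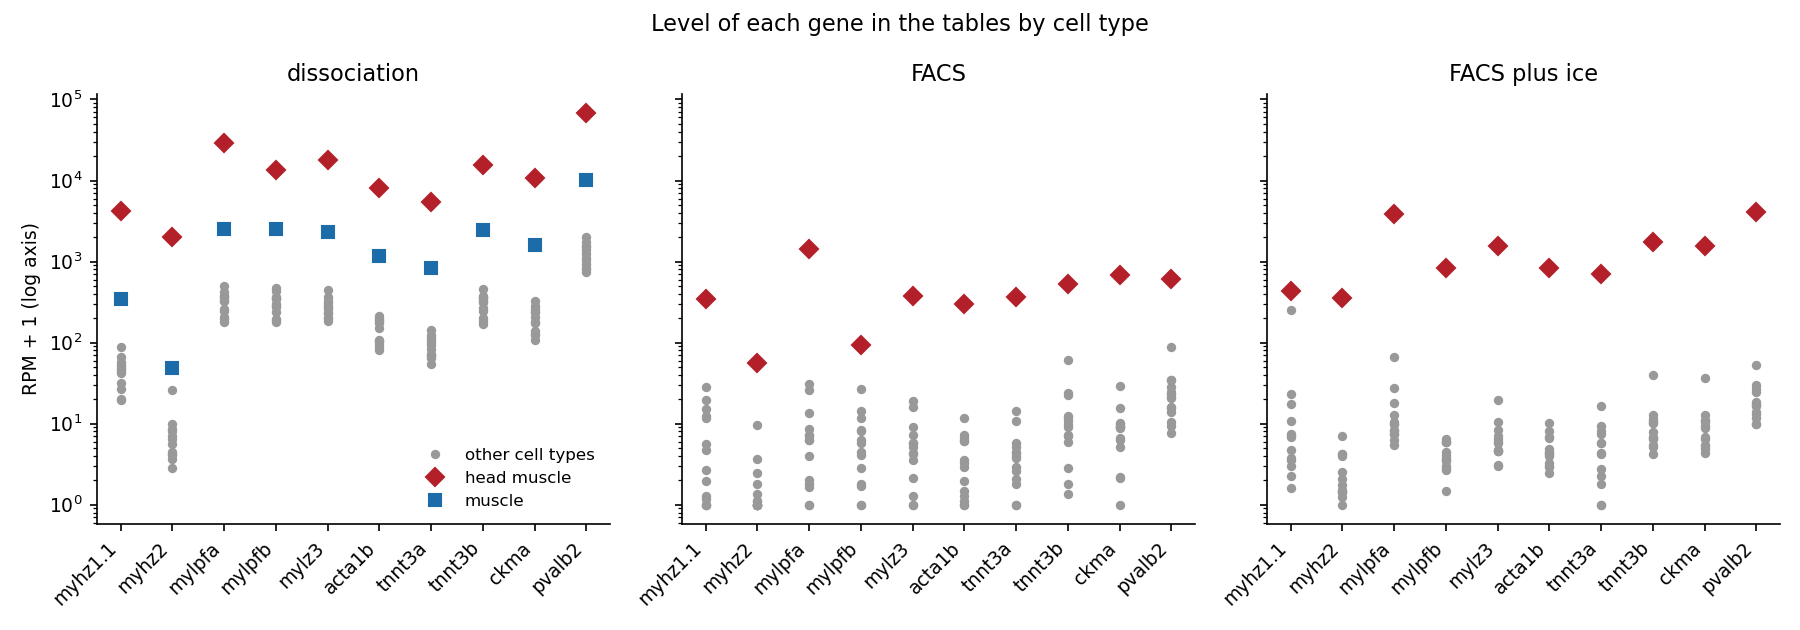
Each panel is 1 library, with the 10 genes on the horizontal axis and RPM + 1 in each cell type table on a log axis. Red diamonds stand for head muscle, blue squares for the muscle table (dissociation library only) and grey points for the 12, 14 and 13 other cell types. Head muscle lies above all other tables for every gene, and the muscle table lies between head muscle and the rest.

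The table named muscle held less of every one of the 10 genes than head muscle. RPM in muscle and in head muscle of the dissociation library were 2525 and 28805 for mylpfa, 10245 and 67972 for pvalb2, and 47.0 and 2012 for myhz2. None of the 10 was higher in muscle than in head muscle, where 82.2% of all 11559 genes tested were, and the median ratio of muscle to head muscle was 0.146 over the 10 and 2.201 over all genes. Against the other cell types, each of the 10 was 7.53-fold (myhz1.1) to 9.29-fold (tnnt3a) higher in muscle, with a median of 8.48 beside 1.18 for all genes. None reached 10-fold, where 0.242% of all genes did. On the same scale the highest of the other tables was 2.41-fold (mylz3) to 4.50-fold (myhz1.1) above the lowest for 9 of the genes, which is less than their ratio in muscle. For myhz2 it was 9.21-fold, from 1.80 RPM in pectoral fins to 24.8 in blood vessels, which is more.

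The leading genes of the muscle table went against its name. The highest ratios to the other cell types belonged to star (202), fdx1b (76.5) and mrap (28.6), which are named here after their values were seen. star and fdx1b encode proteins of steroid synthesis and mrap an accessory protein of the ACTH receptor. Of the 28 genes past 10-fold, 12 were crystallins and none was one of the 10 muscle genes. This count depended on the setting, with 2 genes past 10-fold (1 crystallin) at a pseudocount of 10 RPM, 5 (1 crystallin) against the read-weighted mean of the other cell types and 19 (5 crystallins) without haemoglobin reads, while star was first in each case. The 34 crystallins tested were 9.64-fold higher in the muscle table than in the other cell types in the median (6.47 to 20.4) and stood at 0.342 times the other cell types in head muscle, so the muscle table exceeded the other types by about the same factor for crystallins as for fast muscle genes. Of 11 myogenic factors, 3 were higher in the muscle table than in head muscle, beside 82.2% of all genes. myog, a transcription factor of differentiating myoblasts, was at 133 RPM in head muscle and 8.07 in muscle, whereas pax7a was at 3.18 and 9.06 and pax3a, a factor of muscle and neural crest progenitors, at 1.26 and 4.25. myog and pax3a are named here after their values were seen. The name muscle is kept below only as the label of its table.

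Some slow muscle genes did not follow the order of the 10 genes. The slow light chain gene myl10 was at 523 RPM in muscle and 429.8 in head muscle, and tnnt2d, a troponin T gene of the slow list, was at 144 and 24.0. Of 11 slow genes with at least 250 reads in the library, 5 were higher in muscle than in head muscle, against 2 of 63 other fast muscle genes and 2 of 3 heart genes, beside the 82.2% of all genes.

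The proportions of the 10 genes among themselves differed between tables. In head muscle of the dissociation library mylpfa made up 16.5% of the reads of the 10 genes, mylpfb 7.70%, myhz2 1.15% and pvalb2 39.0%. In the muscle table the same genes made up 10.5%, 10.4%, 0.195% and 42.6%, and in the table of the nervous system they made up 10.4%, 10.4%, 0.246% and 43.7%. The muscle table thus had the proportions of the nervous system table and not those of head muscle. The distance between make-ups was taken as the percent of reads that would have to change gene to turn one into the other. By this measure the 12 other cell types lay 1.48 to 8.53 from the muscle table (median 2.15) and 6.65 to 10.8 from head muscle (median 9.28), and the muscle table lay 8.61 from head muscle. All of these tables come from 1 library, and their points share its depth and its cells.

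The make-up of head muscle differed more between libraries than it did from the other tables of the dissociation library. After FACS, mylpfa made up 30.1% of the reads of the 10 genes in head muscle, ckma 14.3%, pvalb2 12.7% and mylpfb 1.94%. With FACS plus ice the same genes made up 24.3%, 9.78%, 25.8% and 5.16%. The distance to head muscle of the dissociation library was 34.6 after FACS and 16.4 with FACS plus ice. In both, mylpfa and ckma took a larger part and pvalb2 and mylpfb a smaller one.

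**Figure D4:**
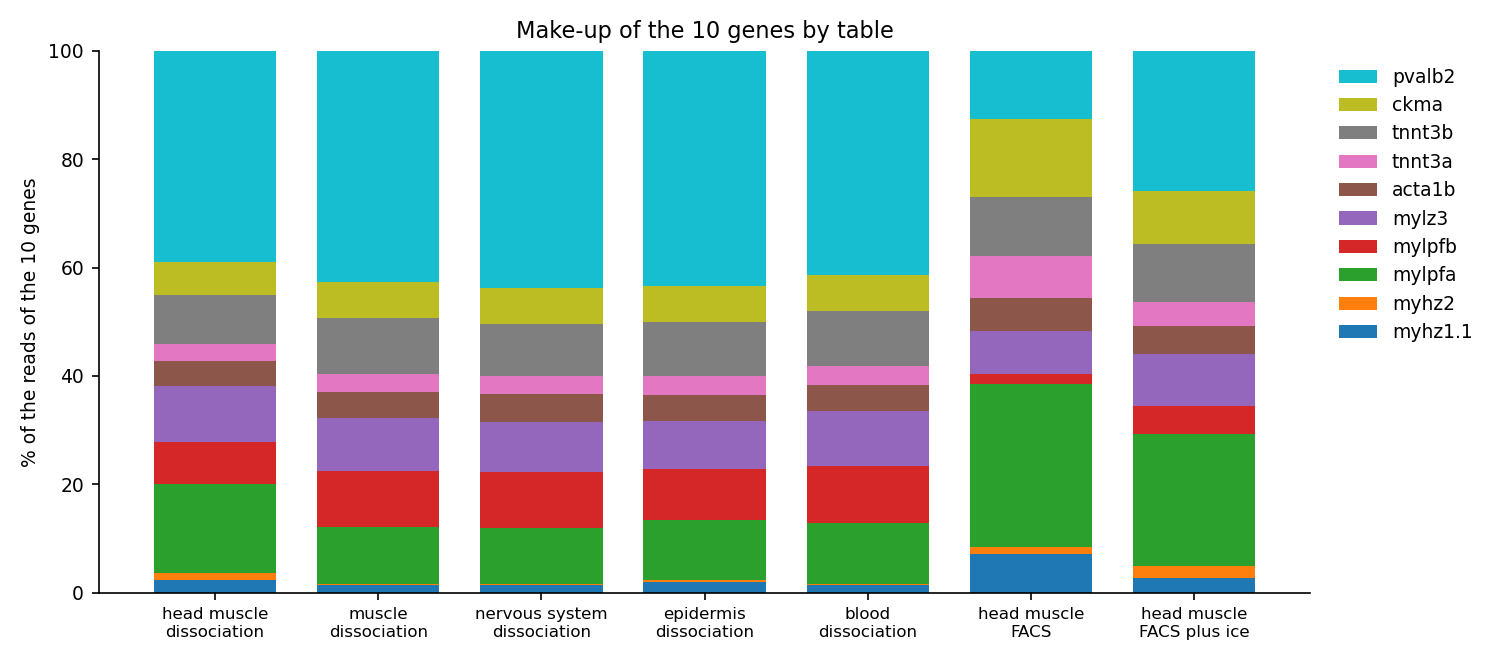
Stacked bars give each gene as a percent of the reads of the 10 genes in 7 tables, 5 of the dissociation library and the head muscle tables of the sorted libraries. The muscle bar has the proportions of the nervous system, epidermis and blood bars, with mylpfa at 10.5% in muscle and 16.5% in head muscle, and pvalb2 shrinks from 39.0% in head muscle after dissociation to 12.7% after FACS.

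Within the head muscle tables each of the 10 genes was again lower after sorting. All 10 were at or below 0.5 times the dissociation level, where 10.8% of 3160 genes were after FACS and 6.84% with FACS plus ice. The ratio ran from 0.00696 (mylpfb) to 0.0816 (myhz1.1) after FACS, with a median of 0.0348 beside 1.70 for all genes. With FACS plus ice it ran from 0.0605 (pvalb2) to 0.178 (myhz2), with a median of 0.106 beside 1.84. mylpfa had 28805 RPM in head muscle after dissociation, 1437 after FACS and 3869 with FACS plus ice. ckma had 10598, 683 and 1559 and pvalb2 had 67972, 603 and 4111. For myhz1.1 the values were 4220, 343 and 434, close to each other in the sorted libraries.

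Some other muscle genes were near or above their dissociation level in the same tables. The most abundant other fast muscle genes were far below it. Their ratios to dissociation after FACS and with FACS plus ice were 0.0601 and 0.129 for actc1b, and 0.00546 and 0.0453 for pvalb1. They were 0.0156 and 0.0766 for tnni2a.4, 0.0183 and 0.0804 for tpma, and 0.0358 and 0.111 for myl1. How many of the other fast muscle genes fell in these tables was not counted. Over all 3160 genes compared there, the median ratio was 1.70 after FACS and 1.84 with FACS plus ice. The myogenic factor myog was at 133, 507 and 297 RPM of head muscle in the 3 libraries, myod1 at 36.6, 80.3 and 60.9, and acta1a, another skeletal actin gene, at 659, 749 and 1012. The troponin I gene tnni2b.1 stood at 974, 1394 and 1278, the cardiac-type actin gene actc1a at 2142, 2543 and 2389, and desma, which encodes the intermediate filament protein desmin, at 347, 335 and 429.9. The genes near or above their dissociation level (myog, myod1, acta1a, tnni2b.1, actc1a and desma) were named after their values were seen. The ratios of acta1a, tnni2b.1, actc1a and desma were below the median of all genes in both sorted libraries. That of myod1 was above the median after FACS and below it with FACS plus ice. Only myog was above the median in both. The head muscle table of the FACS plus ice library also held heart genes, with myl7 at 423 and cmlc1 at 397 RPM, which were below 1 in the head muscle tables of the other libraries. Which cells of a table carried which genes was not tested.

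Over all cells the rest of the fast muscle programme moved with the 10 genes. Of 60 other fast muscle genes with at least 250 UMIs, 57 were at or below 0.5 times the dissociation level after FACS and 57 with FACS plus ice. The shares of all genes were 4.82% and 4.12%. Median ratios of these fast muscle genes were 0.0409 and 0.0693. The most abundant were actc1b, another sarcomeric actin gene (5810, 124 and 238 CPM), the parvalbumin gene pvalb1 (4533, 25.4 and 62.5), the troponin I gene tnni2a.4 (2258, 21.5 and 53.4), the tropomyosin gene tpma (1795, 20.2 and 47.8) and the light chain gene myl1 (1158, 19.7 and 44.2). Slow muscle genes did likewise in 7 of 9 cases in each sorted library, among them myl10 (1067, 22.2 and 41.1), tnnc1b (364, 6.15 and 12.9), tnnt2d (327, 4.33 and 5.78) and the slow heavy chain smyhc1 (123, 2.42 and 4.83). tpm3, a tropomyosin gene that mammals express in many tissues, was at 223, 127 and 141.

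Most genes of muscle precursors behaved otherwise. Of 11 myogenic factors, 1 was at or below 0.5 times the dissociation level after FACS and 2 with FACS plus ice, beside 4.82% and 4.12% of all genes. Their median ratios were 0.922 and 1.05, close to the 1.04 and 1.15 of all genes. pax7a, a transcription factor of muscle stem cells and of some neural and pigment progenitors, was at 19.4, 23.6 and 33.8 CPM, six1b at 27.0, 22.2 and 22.8, mef2d at 24.0, 20.0 and 24.1, six1a at 15.1, 20.9 and 26.7 and mef2cb at 16.4, 11.6 and 17.2. Many of these factors are also used outside muscle. Others of the list, named after their values were seen, were lower after sorting. mef2ca was at 7.97, 2.81 and 2.60 CPM (ratios 0.353 and 0.326) and myod1 at 5.51, 2.99 and 2.73 (0.543 and 0.495). myog was at 13.9, 12.8 and 9.77 CPM. With FACS plus ice the 3 heart muscle genes tested were at 3.37 (myl7), 2.52 (cmlc1) and 2.32 (tnnt2a) times their dissociation level. The median of all genes was 1.15 in that comparison. Among them myl7 was at 2.82 CPM after dissociation, 0.996 after FACS and 9.52 with FACS plus ice, cmlc1 at 3.08, 0.173 and 7.77 and tnnt2a at 1.87, 1.52 and 4.33. How many of all genes rose as far above dissociation was not counted. The less abundant genes of the heart list, tnni1b and tnnc1a, had 69 and 16 UMIs in the dissociation library and 132 and 86 with FACS plus ice. Of the same list nppa went the other way, from 27 to 2 UMIs, and myh6 had 3 and 6. Both were named after their values were seen and had too few UMIs to be tested.

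Over the cell type tables, the genes whose log2 level was most like the mean of the 10 were themselves muscle genes. In the dissociation library (14 tables) these were ckmb, myl1, tpma, tnnc2 and actc1b, with Pearson r between 0.995 (actc1b) and 0.998 (ckmb). After FACS (15 tables) they were actc1b (0.974), tnnc1b (0.935), actc1a (0.930), ckmb (0.923) and neb (0.916), and with FACS plus ice (14 tables) txlnbb (0.988), tnnt2c (0.982), actc1b (0.981), tnnc1a (0.968) and myh7l (0.968). Of these, tnnc1a is on the heart list. It was at 62.4 RPM in head muscle with FACS plus ice and at 0.539 after dissociation. The 10 genes themselves had r with their mean of 0.930 (myhz2) to 0.998 in the dissociation library, 0.790 (myhz2) to 0.961 after FACS and 0.799 (myhz1.1) to 0.980 (acta1b) with FACS plus ice. Tables of 1 library share its preparation and depth, and head muscle is the 1 high table behind most of these values, which are given as a description.

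Labelling was read from T-to-C substitutions, the mark of 4sU, in the head muscle tables. The median T-to-C rate of the 10 genes was 0.114% after dissociation, 0.233% after FACS (9 genes with at least 250 reads) and 0.159% with FACS plus ice, beside 0.0877%, 0.0736% and 0.105% over all genes. For the mean of the 11 other substitution types, the medians over all genes were 0.146%, 0.127% and 0.133%, above those of T-to-C. Over the 10 genes they were 0.0578%, 0.0383% and 0.0519%, below those of T-to-C. The T-to-C rates differed widely between the 10 genes. ckma had the highest, at 0.361%, 0.559% and 0.529% in the 3 libraries, followed by tnnt3a after dissociation and by mylz3 in both sorted libraries. mylz3 was at 0.231%, 0.401% and 0.321%, and T-to-C was the most frequent of its 12 substitution types in all 3. mylpfb had the lowest, at 0.0272%, 0.00621% and 0.0235%, and pvalb2 (0.0414%, 0.0298% and 0.0372%) and tnnt3b (0.0371%, 0.0346% and 0.0367%) were also low.

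A high rate was not always particular to T-to-C. In head muscle of the dissociation library mylpfa had 0.167% T-to-C and 0.470% T-to-G, myhz2 had 0.0704% T-to-C and 1.46% G-to-A, acta1b had 0.158% T-to-C and 0.544% C-to-A, and tnnt3a had 0.300% T-to-C and 0.439% A-to-G. ckma, too, had 0.418% T-to-G there, while T-to-C was its most frequent type after sorting. No variant filter is stated for these tables, and the parts of sequence variants, of paralogs and of 4sU in the rate of any of these genes were not tested. The steadiness of the rate over the tables of the dissociation library with at least 250 reads differed between genes. That of ckma was of like size in all 13 such tables (0.286% in pectoral fins to 0.401% in cartilage). So were those of mylz3 (0.183% to 0.276% in 14 tables) and pvalb2 (0.0349% to 0.0495% in 14 tables). myhz2 had such reads in 3 tables only (0.0704% to 0.0988%). Relative to their size, the other rates spread more widely. They ran from 0.0303% to 0.165% for myhz1.1, 0.00780% to 0.0335% for mylpfb and 0.0155% to 0.0677% for tnnt3b. For tnnt3a they ran from 0.101% to 0.300%, and those of mylpfa and acta1b also spread more widely than that of ckma. In the muscle table the median of the 10 genes was 0.0999%, beside 0.0763% for all genes.

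**Figure D5:**
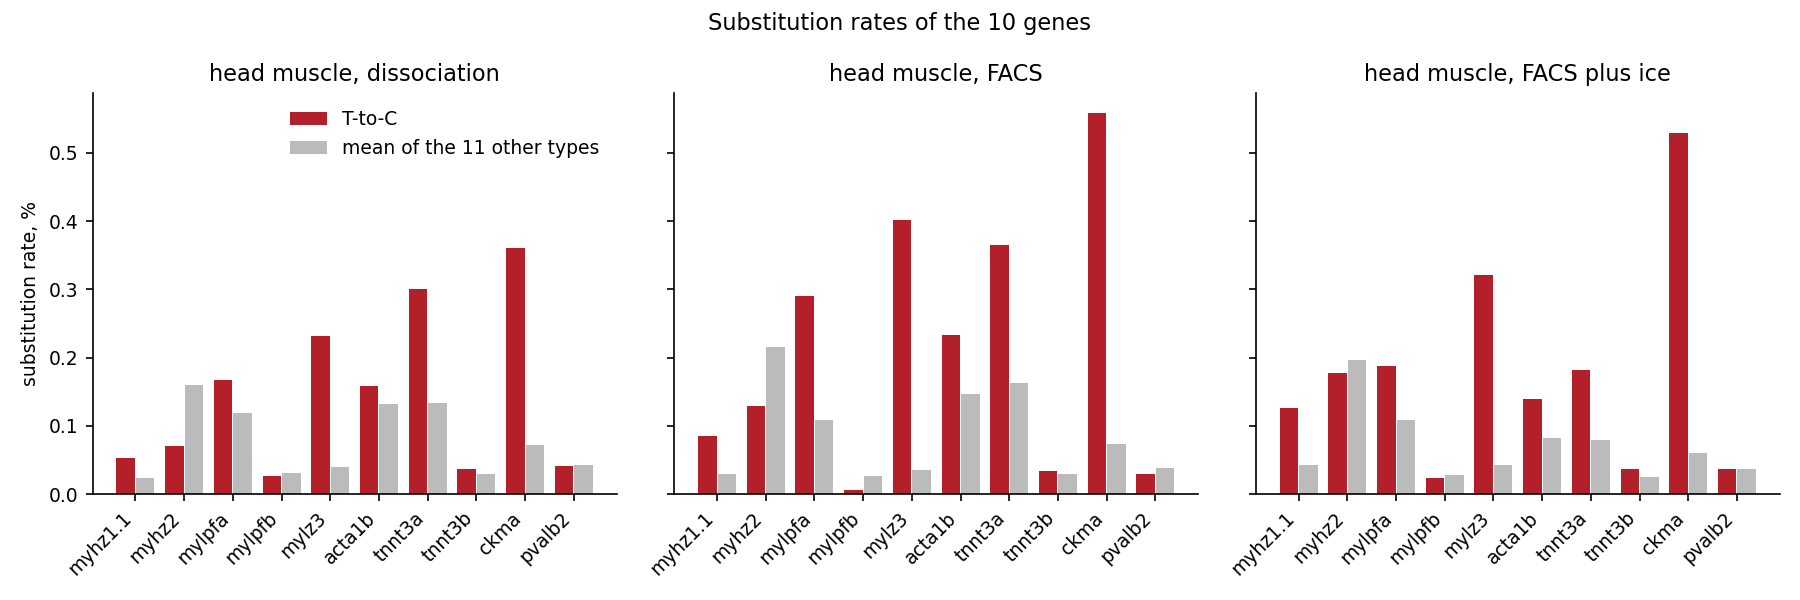
Each panel gives the head muscle table of 1 library, with the substitution rate in percent on the vertical axis, as the T-to-C rate (red) and the mean rate of the 11 other substitution types (grey) for each of the 10 genes. ckma and mylz3 stand well above the mean of their other types in all 3 panels, and mylpfb, tnnt3b and pvalb2 are near or below theirs. The FACS bar of myhz2 rests on 248 reads.

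Reads with at least 2 T-to-C changes are a stricter mark. The tables of such reads held 0.480 entries of the 10 genes per 100 UMIs of the dissociation library, 0.584 after FACS and 1.008 with FACS plus ice. These values are sums over the 10 genes, to which mylz3 alone gave 1826 entries in the dissociation library. Taken gene by gene, the medians over all genes were 0.545, 0.460 and 0.996. A sum and a median of single genes are unlike measures, so only single genes are set against these medians below. Entries and UMIs are not the same unit, so these are no shares of molecules. Entries came from the tables by cell type and UMIs from all listed cells, which need not be the same cells. After FACS mylpfa had 2 entries, while 5 cells held a mylpfa UMI with at least 2 such changes. Intervals of entries take them as independent. In the dissociation library 1826 entries of mylz3 stood beside 495 cells with such a UMI of it, so these intervals can be too narrow. mylz3 was above the median of all genes in every library, with 2.48 (2.36 to 2.59), 2.56 (1.28 to 4.58) and 3.55 (2.86 to 4.35) entries per 100 UMIs. myhz2 was also above it in each, with 1.75, 1.05 (0.127 to 3.80) and 4.87 entries per 100 UMIs, while myhz1.1, with 0.487, 2.61 and 3.20, was below it in the dissociation library and above it in the sorted libraries. pvalb2 (0.116, 0.0818 and 0.111), tnnt3b (0.0529, 0.412 and 0.209) and mylpfb (0.0405, 0 and 0.0662) were below it in every library. After FACS the intervals of tnnt3b (0.0498 to 1.49, 2 entries) and mylpfb (up to 1.962) held the median of all genes. So did that of myhz1.1 in the dissociation library (0.392 to 0.597).

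Entry numbers were small after sorting, with 11 entries for mylz3 and 8 for myhz1.1 after FACS. In that library mylpfb, tnnt3a and acta1b had no entry, which allows up to 1.962, 1.40 and 1.32 per 100 UMIs. In the dissociation library 1519 of the 1826 entries of mylz3 and 715 of the 797 entries of mylpfa came from head muscle. That table also held 301833 of the 366417 reads of mylz3 and 480628 of the 552332 reads of mylpfa. In the dissociation library the interval of mylz3 lay above that of mylpfb (0.0267 to 0.0589), both light chain genes, with entries taken as independent.

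Counting cells gave the same contrast of mylz3 and mylpfb. A labelled detection is a gene in a cell with at least 1 UMI that carries 2 or more such changes. For the 10 genes together these were 1.89% (1.78 to 2.00) of 59213 detections after dissociation, 2.07% (1.41 to 2.92) of 1500 after FACS and 2.24% (1.84 to 2.70) of 4731 with FACS plus ice, below the 2.80%, 3.73% and 4.12% of all genes. mylz3 was labelled in 6.89% (6.31 to 7.50) of its cells after dissociation, 9.63% (5.23 to 15.9) after FACS and 7.88% (5.45 to 10.9) with FACS plus ice. pvalb2 was labelled in 1.12%, 0.473% and 0.321% of its cells and mylpfb in 0.236%, 0% (0 of 92 detections, which allows up to 3.93%) and 0.350%. In each library the intervals of mylz3 and pvalb2 did not overlap. For myhz1.1, counting cells did not repeat the result of its entries in the sorted libraries. It was labelled in 1.18% of its cells after dissociation, 1.09% (0.0275 to 5.91, 1 of 92 detections) after FACS and 2.08% (0.766 to 4.46) with FACS plus ice. These values were below those of all genes in each library, though the intervals of the sorted libraries reached above them.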

How the data were processed

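Per the submitters' processing notes, reads were handled with bcl2fastq 2.19, Cell Ranger 6.1.1 and SAMtools 1.14 on the GRCz10 build. The authors deposited UMI counts as 1 matrix of genes and cells per library, lists of genes and labelled genes per barcode, and, for each cell type of their own clustering, read counts per gene with a ratio of substitutions to reference bases for each of 12 substitution types at a base quality of at least 20, once for all reads and once for reads with at least 2 T-to-C substitutions. These ratios were deposited as averages over reads, and are printed here as percent. The authors state no variant filter for these tables.

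The 10 genes and the other gene lists were chosen with earlier results of these data known. Identifiers with the same symbol were added up. Levels are UMIs per 1000000 UMIs of a library over all listed cells (CPM), or reads per 1000000 reads of a table (RPM). Genes needed at least 250 UMIs over the 3 libraries, or 250 reads over the tables of a library. A ratio of at most 0.5 or at least 2 between libraries, or at least 10 over the median of the other cell types with a pseudocount of 1 RPM, was counted. Cell types were those of the authors, no annotation of single cells was used and no doublet caller was run. Named were all 10 genes, the 5 genes most like their mean in each library and the 5 most abundant genes of each list, and any other gene is said to be chosen after its values were seen. Groups came from the sample titles and protocols. Alternatives left out haemoglobin and mitochondrial genes, the deepest 5% of cells, muscle-rich cells or the 10 highest cells (chosen after seeing the data, as was recomputing the ratios between genes in this way), took a mean over cells, thinned cells to 1000 UMIs, moved the muscle-rich limit to 2% and 10%, and changed the pseudocount to 10, the read minimum to 1000 and the denominators. No per-sample columns of other series were used. Python 3.11.15, numpy 2.4.6, scipy 1.17.1, pandas 2.3.3 and matplotlib 3.10.9 were used, and the scripts were tested on simulated data. No sequences or coordinates are given.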

Additional observations from a re-analysis of the deposited data

How the results depend on the processing

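Each of the 10 genes remained at or below 0.5 times its dissociation level in both sorted libraries under all 4 alternatives tried for the level of single genes. The size of the difference did depend on the cells included. The summed level in CPM, in the order dissociation, FACS, and FACS plus ice, was 17207, 261 and 506 without haemoglobin and mitochondrial genes, 5160.0, 159 and 356 without the 5% deepest cells, 4264, 179.6 and 152.5 without muscle-rich cells, 10760.0, 93.6 and 160.4 without the 10 cells with most UMIs of the 10 genes, and 9919.5, 237 and 484 as the mean over cells. These alternatives take in other cells or another denominator by construction. The ratios of single genes left their counting interval in 20 of 20 cases without the deepest cells and without muscle-rich cells and in 19 of 20 without the 10 cells. After thinning to 1000 UMIs, 89.1%, 7.48% and 9.36% of cells held a UMI of the 10 genes.

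With the muscle-rich limit at 2% of UMIs, such cells held 83.5%, 60.9% and 80.3% of the UMIs of the 10 genes, and with the limit at 10% they held 72.6%, 3.30% and 60.2%. Per 100 reads, which is another unit than per 100 UMIs, the tables of labelled reads held 0.106, 0.0917 and 0.269 entries of the 10 genes. These are again sums over the 10 genes, whereas the medians of single genes over all genes were 0.166, 0.0686 and 0.359. The number of genes of all past 10-fold over the other cell types was more sensitive. With a pseudocount of 10 RPM it fell from 28 to 2 in the muscle table, and in head muscle from 215 to 81 in the dissociation library, from 116 to 51 after FACS and from 164 to 69 with FACS plus ice. Against the read-weighted mean it was 5 in the muscle table and 189, 82 and 129 in head muscle. All 10 genes stayed past 10-fold in head muscle and none passed in muscle under these settings, except for mylpfb and myhz2 in head muscle after FACS with a pseudocount of 10 RPM. The median T-to-C rate of the 10 genes in head muscle was 0.114%, 0.261% and 0.159% with at least 1000 reads. The read-weighted mean was 0.114%, 0.258% and 0.166%. Reads are PCR copies, so no counting interval is given for these rates. No paired analysis was possible because each group has 1 library, and for the same reason no replicate could be left out. The FACS library limits most single-gene values, with 188 UMIs of mylpfb and 190 of myhz2.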
